A study of Mus musculus with 8 samples.

Results

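The aquaporin water channels are described here in liver RNA from Atp7b knockout (KO) and wild-type (WT) mice, each aged 6 months. Atp7b, the copper pump of hepatocytes, is lost in Wilson disease, a copper overload disorder, and the study asked about bile acids there. There were 4 KO and 4 WT libraries of whole liver. The sources used here give neither the allele, strain and sex nor whether libraries came from different mice, so a p-value reflects the spread between libraries, which may be technical. Rows of the count table were taken by gene name for 7 genes, namely Aqp1, Aqp3, Aqp4, Aqp7, Aqp8, Aqp9 and Aqp11, and all 7 were found among 54232 genes. Another 5 aquaporin genes of the table (Mip, Aqp2, Aqp5, Aqp6 and Aqp12) were kept beside them for comparison.

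Aquaporins are membrane channels that assemble as tetramers in which each subunit has its own pore. The water channels proper (Aqp1, Aqp4, Aqp8) pass water, and Aqp8 also passes ammonia and hydrogen peroxide. The aquaglyceroporins (Aqp3, Aqp7, Aqp9) pass glycerol and other small solutes as well, while Aqp11 is a distant member found in the endoplasmic reticulum. In liver, Aqp8 is known from the canalicular membrane and vesicles of hepatocytes, where water follows secreted bile salts. Aqp9 is known as the sinusoidal glycerol channel of hepatocytes, and Aqp1 is known from bile duct epithelium, endothelium and red blood cells.

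The libraries differed in depth and 1 stood apart. Total counts lay between 14583961 and 18423836 in KO libraries and between 9880253 and 27530506 in WT libraries. Chi-square per gene, a distance between 2 libraries that also grows with depth, set WT replicate 3 apart. It was 155 to 222 between WT replicate 3 and the other WT libraries, and 20.9 to 53.3 among those others. Between WT replicate 3 and the KO libraries it was 172 to 237. Atp7b itself read 6.503 to 8.91 CPM (counts scaled to library size) in KO livers and 9.63 to 31.95 CPM in WT livers, with WT replicate 3 the lowest WT library. The Atp7b log2 fold change was -1.65 ± 0.32 (SE), with edgeR adjusted p = 0.00313. The metallothionein Mt1, which binds copper and zinc, read 427 to 1142 CPM in KO livers and 2.46 to 6.23 CPM in WT livers, WT replicate 3 included. CPM values are on TMM-scaled totals throughout, and fold changes are KO minus WT on the log2 scale.

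Of the 7 aquaporins, 4 fell in KO livers (Aqp4, Aqp8, Aqp9 and Aqp11) and 1 rose (Aqp7). Aqp1 did not pass the test, and Aqp3 had too few reads to be tested. Calls rest on a Benjamini-Hochberg adjusted p under 0.05 in edgeR's quasi-likelihood test of 15811 genes. The background was wide, since 30.0% of them were called, 17.6% as higher in KO (2775) and 12.5% as lower (1971). That split was 4804 higher and 642 lower with library totals only, and 3167 higher and 1424 lower with upper-quartile factors. Aqp7 passed the filter on low counts through its KO libraries alone and therefore had to differ, and the members counted are those that passed. Some genes of the lists below passed in the same way, among them Cftr, Cldn4, Gpx2, Kcnn4, Krt20, Lrrc8e and Vil1. The median log2 fold change of the 6 tested members was -0.79, against -0.05 for all genes tested. Across the table, 32.1% of genes had genotypes that did not overlap, 18.7% with KO higher and 13.4% with KO lower. Of the 6 tested aquaporins, 3 had KO lower without overlap (Aqp4, Aqp8 and Aqp11) and 1 had KO higher (Aqp7). In whole liver RNA, fewer cells of a type and less RNA per cell cannot be told apart.

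**Figure D1:**
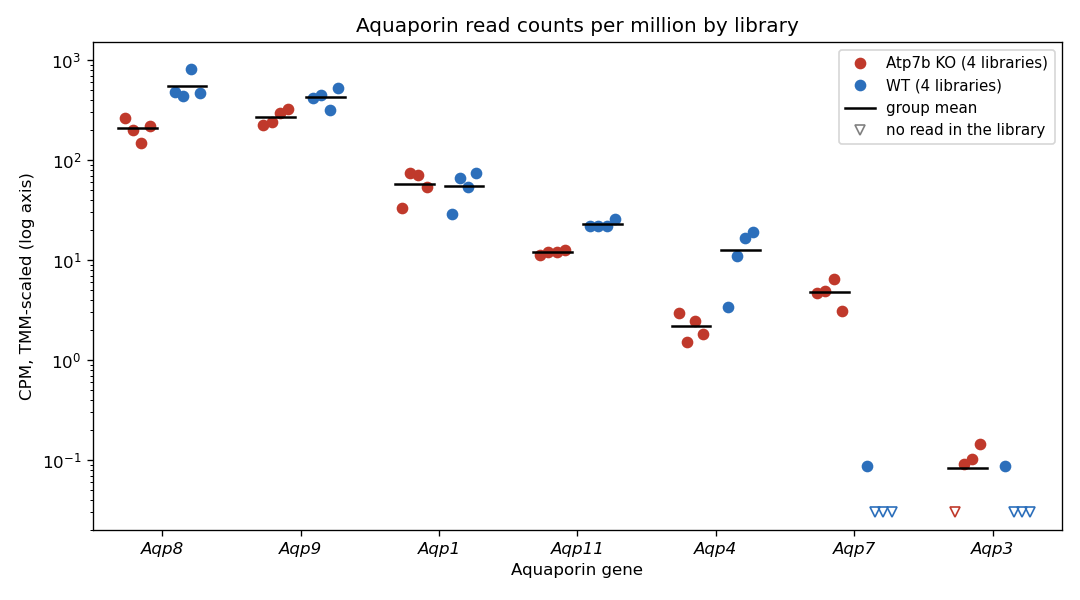
CPM of each aquaporin in each library on a log axis, KO on the left of each pair and WT on the right, with black bars at the group means and open triangles for libraries with no read. KO and WT points are apart for Aqp8, Aqp11, Aqp4 and Aqp7, touch for Aqp9 and are mixed for Aqp1, while Aqp3 stays at single reads.

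Aqp8 (ENSMUSG00000030762.11, mm10 chromosome 7, 123462291 to 123468004, plus strand), the canalicular water channel, had the highest level per exon length of the family in both genotypes and was lower in every KO library than in any WT library. It read 261, 202, 147 and 220 CPM in KO replicates 1 to 4, against 474, 442, 810 and 463 CPM in WT replicates 1 to 4. WT replicate 3 stood above the other WT libraries, and the groups did not overlap. The means were 207 ± 47.4 CPM in KO livers and 547 ± 176 CPM in WT livers (SD, n = 4 each). The log2 fold change was -1.40 ± 0.26 (SE), a 2.64-fold decrease (edgeR adjusted p = 0.00223). Without WT replicate 3 it was -1.16.

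Aqp11 (ENSMUSG00000042797.9, mm10 chromosome 7, 97724006 to 97738289, minus strand) had the smallest relative spread of the 6 tested members in both genotypes. Its levels were 11.2, 12.03, 12.1 and 12.6 CPM in KO replicates 1 to 4, against 21.9, 22.0, 21.8 and 25.9 CPM in WT replicates 1 to 4. Every KO library lay below every WT library, and WT replicate 3 did not differ from WT replicates 1 and 2 as it did for Aqp8. The means were 11.99 ± 0.600 CPM in KO livers and 22.9 ± 1.98 CPM in WT livers (SD, n = 4 each), a log2 fold change of -0.93 ± 0.15 (SE, edgeR adjusted p = 9.2e-04). Scaled by library totals only, the change was -0.51 and missed the threshold (adjusted p = 0.0538).

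Aqp4 (ENSMUSG00000024411.9, mm10 chromosome 18, 15389496 to 15410982, minus strand), best known as the water channel of astrocytes, was a minor gene of these livers and varied widely among WT libraries. It read 2.98, 1.52, 2.44 and 1.82 CPM in KO replicates 1 to 4, against 3.43, 10.999, 16.7 and 19.3 CPM in WT replicates 1 to 4. WT replicate 1 lay just above the highest KO library, so the groups were apart by a narrow margin. In raw reads, Aqp4 had 166 counts over the KO libraries and 786 over the WT libraries. The log2 fold change was -2.53 ± 0.47 (SE), a 5.79-fold decrease (edgeR adjusted p = 0.00218), and -2.86 without WT replicate 1. One antisense gene overlaps the Aqp4 locus on the opposite strand but shares no exon base with it.

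Aqp9 (ENSMUSG00000032204.13, mm10 chromosome 9, 71110659 to 71168682, minus strand), the sinusoidal glycerol channel, showed the smallest of the 4 called decreases. It read 226, 239, 297 and 326 CPM in KO replicates 1 to 4, against 419, 450, 315 and 519 CPM in WT replicates 1 to 4. KO replicate 4 reached above WT replicate 3, so the groups overlapped, while the other 3 KO libraries lay below all WT libraries. The means were 272 ± 47.3 CPM in KO livers and 426 ± 84.9 CPM in WT livers (SD, n = 4 each). The log2 fold change was -0.65 ± 0.21 (SE, edgeR adjusted p = 0.0374), with a 95% interval of -1.11 to -0.19. This call was lost without KO replicate 1, 2 or 3 (adjusted p = 0.1097, 0.113 and 0.0671) and without WT replicate 1, 2 or 4 (adjusted p = 0.0608, 0.0906 and 0.113). It was also lost with library totals only, where the change was -0.24 (adjusted p = 0.476). An antisense gene and a pseudogene lie over the locus on the opposite strand and share no exon base with Aqp9.

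Aqp7 (ENSMUSG00000028427.13, mm10 chromosome 4, 41033074 to 41048139, minus strand), through which fat cells release glycerol, was nearly silent in WT livers and read in every KO library. It had 74, 107, 126 and 65 counts in KO replicates 1 to 4, against 1, 0, 0 and 0 counts in WT replicates 1 to 4. On the CPM scale it read 4.70, 4.91, 6.40 and 3.12 in KO replicates 1 to 4, against 0.0880, 0, 0 and 0 in WT replicates 1 to 4. The single WT read sets any fold change, so the ratio of summed, depth-scaled counts of 277 has a 95% counting interval of 49.3 to 10952. Without WT replicate 1 no WT read is left, and Aqp7 was then at least 74.1-fold higher in KO, with the floor set at 3 counts summed over the 3 remaining WT libraries. The gene was called higher (fitted log2 fold change 7.59, edgeR adjusted p = 1.04e-05, and 9.41 without WT replicate 1). Such near silence in WT was shared with other genes: 172 genes, Aqp7 among them, or 6.198% of all higher calls, had no more than 3 WT counts and a KO mean of 1 CPM or above.

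Markers of fat tissue were read beside Aqp7 because adipocytes are its best known source. The adipocyte list summed to 39.95 to 45.7 CPM in KO livers and 19.1 to 28.02 CPM in WT livers. Within it, Adrb3, a beta-adrenergic receptor, averaged 33.7 ± 4.08 CPM in KO livers and 11.2 ± 4.55 CPM in WT livers (SD, n = 4 each). The fatty acid binding protein gene Fabp4 averaged 8.59 ± 2.98 CPM in KO livers and 10.4 ± 4.40 CPM in WT livers (SD, n = 4 each). The hormone genes Adipoq, Lep and Retn had 24, 3 and 0 counts in KO and 3, 0 and 7 in WT, summed over libraries. The lipid droplet gene Plin1 had 5 and 0, Cidea 79 and 11 and Ucp1 2 and 0, against 372 and 1 for Aqp7. Of the 9 genes in that list only 3 passed the filter, with Adrb3 called higher, Cfd called lower (not without KO replicate 1, 2 or 4 or WT replicate 1, 2 or 4) and Fabp4 not called (edgeR adjusted p = 0.579). Kidney also expresses Aqp7, and its markers Umod and Slc12a1 had 6 and 9 counts over the KO libraries and none over the WT libraries.

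Aqp1 (ENSMUSG00000004655.5, mm10 chromosome 6, 55336432 to 55348555, plus strand) did not differ beyond the spread between libraries. It read 33.5, 74.1, 70.1 and 53.4 CPM in KO replicates 1 to 4, against 28.9, 65.5, 53.9 and 73.9 CPM in WT replicates 1 to 4. Each genotype had 1 low library, and the ranges were nearly the same. The log2 fold change was 0.06 ± 0.31 (SE, edgeR adjusted p = 0.914) with a 95% interval of -0.64 to 0.75, so KO levels between 0.641 and 1.68 times the WT level lie within the error. Its sign turned with limma-voom and quality weights (-0.062) and without KO replicate 2 or 3 or WT replicate 1, and the change was 0.51 with library totals only, a scaling that also put the median of all genes at 0.37.

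Markers of the cells that carry Aqp1 moved in different directions. Cholangiocyte markers summed to 449 to 1074 CPM in KO livers and 55.3 to 99.9 CPM in WT livers, and 9 of the 11 tested were called higher and 0 lower. Endothelial markers summed to 148 to 253 CPM in KO livers and 207 to 338 CPM in WT livers. Over all genes tested 17.6% were called higher and 12.5% lower, and of these 15 markers 1 was called higher and 3 lower. That number of lower calls was 9 without WT replicate 3, and 1 without KO replicate 1, 3 or 4 or WT replicate 2 or 4. Red blood cell markers summed to 530 to 1457 CPM in KO livers and 312 to 777 CPM in WT livers. Of the 7 red cell genes tested, the erythroid transcription factor Klf1 (log2 fold change -1.07) was called lower, though not without KO replicate 2 or 4 or WT replicate 2 or 4. The part of these cells in the Aqp1 level was not tested.

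Aqp3 (ENSMUSG00000028435.8, mm10 chromosome 4, 41092722 to 41098183, minus strand), the aquaglyceroporin of skin and kidney collecting duct, was close to absent from these libraries. It had 0, 2, 2 and 3 counts in KO replicates 1 to 4, against 1, 0, 0 and 0 counts in WT replicates 1 to 4. With 7 KO counts and 1 WT count, the depth-scaled ratio was 5.20 with a 95% counting interval of 0.669 to 235, so no difference was detectable at this depth.

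Of the aquaporins outside the 7, Aqp2, the vasopressin-controlled channel of the kidney collecting duct, had no read in any library. Aqp5, the water channel of salivary and airway glands, had 2, 15, 16 and 7 counts in KO replicates 1 to 4, against 1, 0, 0 and 0 counts in WT replicates 1 to 4. The Aqp5 ratio was 29.7 with a 95% counting interval of 5.04 to 1204. It did not pass the filter. In the fit without a filter it was called higher (log2 fold change 4.37, edgeR adjusted p = 4.2e-04). That fit leaned to KO over all genes, with 4244 called higher and 2097 lower and a median log2 fold change of 0.37. KO libraries also had more genes with a count, 26082 to 27149 against 19726 to 23119 in WT libraries. Mip, the lens aquaporin, had 9 counts over the KO libraries and 0 over the WT libraries (edgeR adjusted p = 0.0423 in the fit without a filter). It shares 1223 exon bases with a noncoding gene on the opposite strand. As no strand setting is named, whether its reads come from Mip is not known here. Aqp6 and Aqp12 had 2 counts each over the KO libraries and 0 over the WT libraries, under the floor of 3 counts.

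Values within the 3 runs of library-name numbers kept the directions of the called members. The labels do not call these runs batches. The lowest run holds KO replicates 1 and 2 and WT replicate 1, the middle run the third replicate of each genotype, and the highest run KO replicate 4 and WT replicates 2 and 4. In that order, the difference in mean log2 CPM was -1.05, -2.46 and -1.04 for Aqp8, -0.91, -0.84 and -0.91 for Aqp11 and -0.66, -2.72 and -2.92 for Aqp4. For Aqp9 it was -0.85, -0.09 and -0.57, and for Aqp7 4.58, 5.79 and 4.78. Aqp1 did not keep a single direction, at 0.78, 0.38 and -0.38.

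**Figure D2:**
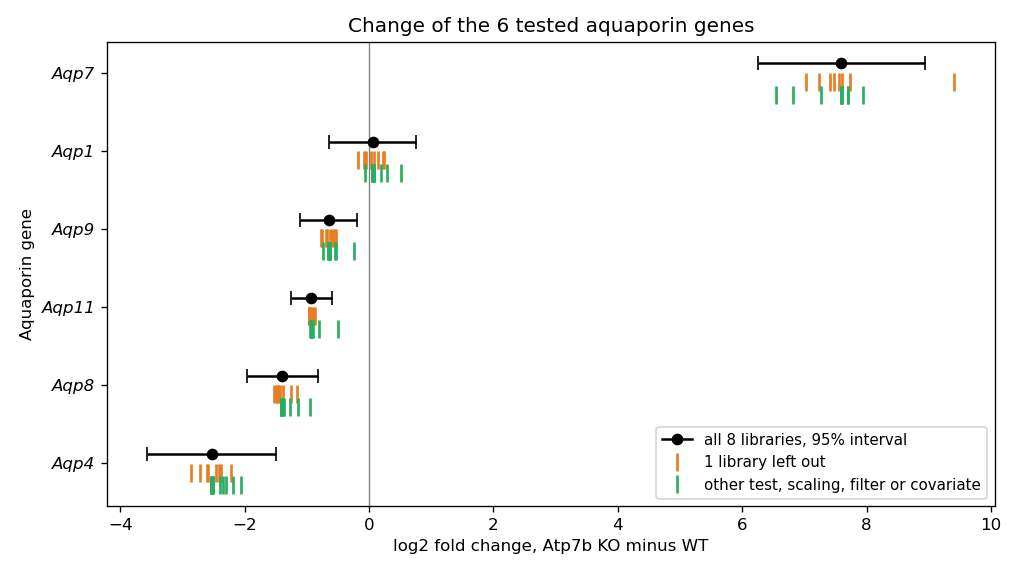
Log2 fold change, KO minus WT, of the 6 tested aquaporins with its 95% interval (black), beside the values with 1 library left out (orange) and with another test, scaling, filter or covariate (green). Aqp4, Aqp8, Aqp9 and Aqp11 stay below 0 and Aqp7 stays above 6 under all of them, while Aqp1 lies on both sides of 0.

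Around the transcription starts, the promoters of the gene that rose and of the 2 decreased genes whose groups did not overlap and that RefSeq covers here are printed to show how they differ in base composition and in short motifs. RefSeq (GRCm38.p6, the build of mm10) gave 8 windows for 6 of the 7 members, each from 250 bases before to 50 bases after a start, and capitals mark motif matches.
Aqp7: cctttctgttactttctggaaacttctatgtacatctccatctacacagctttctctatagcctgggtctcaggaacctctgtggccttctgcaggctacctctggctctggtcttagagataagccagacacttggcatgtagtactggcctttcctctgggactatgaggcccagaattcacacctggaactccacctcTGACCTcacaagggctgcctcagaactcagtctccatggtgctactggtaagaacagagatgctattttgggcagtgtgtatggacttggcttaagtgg
Aqp8: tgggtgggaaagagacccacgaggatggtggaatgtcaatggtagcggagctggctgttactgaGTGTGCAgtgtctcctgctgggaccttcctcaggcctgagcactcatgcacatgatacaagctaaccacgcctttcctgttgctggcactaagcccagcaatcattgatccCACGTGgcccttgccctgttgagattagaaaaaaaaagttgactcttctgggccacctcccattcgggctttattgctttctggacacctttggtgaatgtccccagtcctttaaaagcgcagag
Aqp11: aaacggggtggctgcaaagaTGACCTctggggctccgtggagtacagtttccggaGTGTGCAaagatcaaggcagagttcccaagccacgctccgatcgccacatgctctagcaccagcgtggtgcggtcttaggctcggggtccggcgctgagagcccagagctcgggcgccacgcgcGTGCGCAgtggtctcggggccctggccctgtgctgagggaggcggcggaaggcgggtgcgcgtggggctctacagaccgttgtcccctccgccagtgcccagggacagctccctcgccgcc

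The first, chr4:41048087-41048386 on the minus strand, covers the more upstream of 2 Aqp7 starts. The Aqp8 window is chr7:123462044-123462343 on the plus strand, and the Aqp11 window is chr7:97738198-97738497 on the minus strand. The Aqp7 window had 0 CpG and 49.7% GC, the Aqp8 window 6 CpG and 52.0% GC, and the Aqp11 window 27 CpG and 68.0% GC, against a median of 52.7% GC over 32851 mouse windows.

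Motifs were searched on both strands as exact letters, and matches are a description only. Among them were the metal response element cores TGCACNC and TGCGCNC, the antioxidant response core TGACNNNGC, the nuclear receptor core AGGTCA, the forkhead motif TGTTTAC, the TATA box TATAAA, the E-box CACGTG and the GC box GGGCGG. No 2 matches overlapped in the 3 printed windows. The Aqp8 window held TGCACNC 186 bases upstream of the start and CACGTG 75 bases upstream, and the Aqp11 window held TGCACNC 195 bases, TGCGCNC 71 bases and AGGTCA 230 bases upstream. The Aqp7 window held AGGTCA 49 bases upstream and no metal response core. Over all windows, TGCACNC was found in 12.6%, TGCGCNC in 15.4%, AGGTCA in 16.3% and CACGTG in 7.15%, so each match is a common one. Neither of the 2 Aqp9 windows held any of these letters.

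Per length of exon, Aqp8, Aqp9 and Aqp1 made up nearly all aquaporin RNA in both genotypes. The levels in this paragraph and the next are CPM per kb of exon. In KO livers Aqp8 averaged 131 ± 30.0, Aqp9 65.6 ± 11.4 and Aqp1 22.0 ± 7.05 CPM per kb, and in WT livers Aqp8 averaged 346 ± 111, Aqp9 103 ± 20.5 and Aqp1 21.1 ± 7.45 CPM per kb (SD, n = 4 each). In KO livers the next were Aqp7 (1.69), Aqp11 (1.27), Aqp4 (0.351) and Aqp3 (0.0461 CPM per kb), where Aqp7 and Aqp11 overlapped between libraries. In WT livers they were Aqp11 (2.43), Aqp4 (2.02), Aqp3 (0.0120) and Aqp7 (0.00778 CPM per kb), with Aqp11 and Aqp4 overlapping and Aqp3 and Aqp7 both at single reads. Aqp7 thus had the lowest mean in WT livers and the fourth highest in KO livers. Exon length is the union over annotated transcripts, which is 9418 bases for Aqp11 and lowers its level if short transcripts prevail.

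The summed level of all 7 members was lower in every KO library than in any WT library. It was 236, 217, 195 and 241 CPM per kb in KO replicates 1 to 4, against 415, 417, 614 and 452 CPM per kb in WT replicates 1 to 4. Aqp8 made up 70.1, 58.9, 47.6 and 57.8% of that sum in KO replicates 1 to 4, against 72.3, 67.0, 83.4 and 64.8% in WT replicates 1 to 4. Aqp1 made up 5.40 to 13.7% in KO livers and 2.65 to 6.22% in WT livers, and Aqp9 23.1 to 36.7% in KO livers and 12.4 to 27.7% in WT livers. All 3 shares overlapped between the genotypes. The Aqp7 share, 0.458 to 1.16% in KO livers and at most 0.00750% in WT livers, did not.

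**Figure D3:**
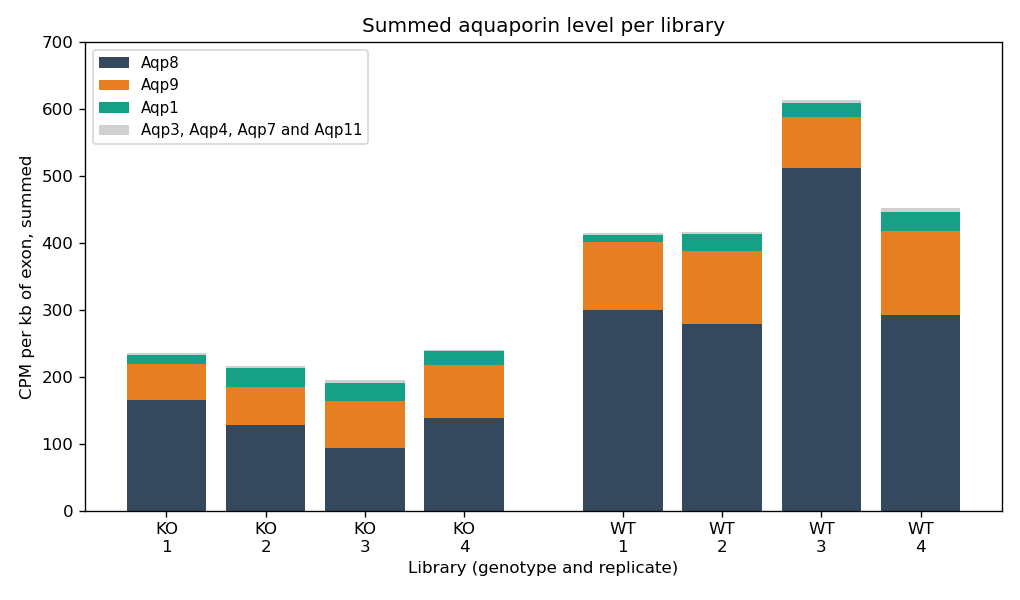
Summed aquaporin level in CPM per kb of exon for each library, stacked by gene, with the 4 KO libraries on the left and the 4 WT libraries on the right. KO bars end between 195 and 241 and WT bars between 415 and 614 CPM per kb, and most of the height is Aqp8 and Aqp9.

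Genes with the most similar profiles were named for each tested member by the root mean square difference of centred log2 CPM over the 8 libraries, among 12225 genes that averaged 1 CPM or more. This is a description, since genes that differ between the genotypes by a like amount come out close. The genes nearest to Aqp8 were Prr16 (difference 0.089), the transporter gene Slc22a30 (0.130) and Cebpa (0.148), which encodes a transcription factor of hepatocytes. Nearest to Aqp11 were Nfe2l1 (0.059), a stress-response transcription factor, the epoxide hydrolase Ephx2 (0.072) and the aldehyde dehydrogenase Aldh9a1 (0.091). For Aqp9 they were the angiotensin receptor Agtr1a (0.092), Sun2 (0.098) of the nuclear envelope and Adi1 (0.098) of methionine salvage. Within 0.25 lay 541 genes for Aqp9 and 498 genes for Aqp11, so both profiles are common ones. Nearest to Aqp4 were the organic anion carrier Slco1a4 (0.421), Arrdc3 (0.452) and the cytochrome P450 gene Cyp3a25 (0.492). Aqp7 had Ndc80 (0.263) of the kinetochore, the flippase Atp8b5 (0.281) and the glutathione peroxidase Gpx2 (0.291). Aqp1 had Prickle1 (0.229), Mef2c (0.232) and Il16 (0.233).

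Genes of glycerol and triglyceride handling, a list tied to the glycerol passed by Aqp7 and Aqp9, were mostly lower in KO livers. Of 22 tested, 14 were called lower and 1 higher, with a median log2 fold change of -0.90. The monoglyceride lipase Mgll averaged 31.1 ± 8.57 CPM in KO livers and 158 ± 44.3 CPM in WT livers (SD, n = 4 each), and the triglyceride-forming Dgat2 (-1.09) and the glucose-6-phosphatase G6pc (-2.08) also fell. So did the droplet protein Plin4, at 2.53 ± 0.236 CPM in KO livers and 10.02 ± 4.81 CPM in WT livers (SD, n = 4 each). Glycerol kinase, Gk, which phosphorylates the glycerol that enters through Aqp9 and was chosen for that role after its value was seen, was at -1.11 ± 0.28 (SE, edgeR adjusted p = 0.0117). With library totals only, 8 genes of this list were called lower and 3 higher, and the single higher call (Abhd5) was lost without KO replicate 1 or 2 or WT replicate 1, 2 or 4.

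Genes of ammonia and urea, which Aqp8 and Aqp9 can pass, gave a similar count, with 7 of 11 called lower, 1 called higher and a median log2 fold change of -0.72. Glutamine synthetase, Glul (-2.29), the urea cycle gene Asl (-1.17), the aspartate carrier Slc25a13 (-1.02) and the glutaminase Gls2 (-0.70) fell. Without KO replicate 2 or 3 or WT replicate 4, 4 were called lower, and with library totals only 1 was.

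In bile formation, the partners of Aqp8 and Aqp1 moved in both directions. Of 15 genes of canalicular bile formation, in which Aqp8 takes part, 5 were called lower and 3 higher (6 higher with library totals only), with a median log2 fold change of -0.08. The bile acid carrier Slc10a1 (-2.84) and the sterol exporter Abcg5 (-1.50) fell. The membrane-linker gene Ezr (1.95) and the villin gene Vil1 (3.27) rose, from WT means of 4.97 and 0.296 CPM. Rdx, a membrane-linker gene chosen for that role after its value was seen, fell (-0.69, edgeR adjusted p = 0.0182). Of 18 genes of bile duct fluid secretion, which runs through Aqp1 in cholangiocytes, 6 were called higher and 3 lower, with a median of -0.07. For both lists, the shares over all genes tested were 17.6% higher and 12.5% lower. The chloride channel Cftr averaged 4.20 ± 1.71 CPM in KO livers and 0.290 ± 0.128 CPM in WT livers (SD, n = 4 each). Ano1 (1.97), Kcnn4 (3.40) and Car2 (2.50) also rose, while Aqp1 was not called. Cftr and Kcnn4 had 15 and 9 counts over the WT libraries and passed the filter through their KO libraries alone. Cftr is also in the cholangiocyte list, whose summed level stands above beside Aqp1, and the part of bile duct cells in these rises was not tested. Lower calls in that list numbered 6 without WT replicate 3, 1 without KO replicate 1 or 3 or WT replicate 2 or 4, and 0 with library totals only.

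The hydrogen peroxide list, tied to the peroxide passed by Aqp8, had a median log2 fold change of 0.00. In it, 4 of 18 were called higher and 5 lower, where the shares over all genes tested were 17.6% and 12.5%. The glutathione peroxidase Gpx2 of this list, also near Aqp7 in profile, averaged 6.37 ± 1.89 CPM in KO livers (SD, n = 4). It had 1 count over the WT libraries and, like Aqp7, passed the filter through its KO libraries alone. Gpx3 (1.84) and Cybb (1.67) rose and Sod2 (-0.83) fell. Higher calls numbered 9 without WT replicate 3, and lower calls numbered 3 without KO replicate 1, 2 or 3 or WT replicate 1, 2 or 4.

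The cell volume list covers the osmolyte and ion fluxes that water follows. In it, 4 of 18 were called higher and 1 lower, with a median log2 fold change of 0.03. Among all genes tested, 17.6% were called higher and 12.5% lower. The aldose reductase Akr1b3 (3.98) and the anion channel subunits Lrrc8b (3.39) and Lrrc8e (3.48) rose. Lrrc8e had 7 counts over the WT libraries and passed the filter through its KO libraries alone, so it had to differ. Slc12a7 (-1.33) fell, a call that was lost without KO replicate 1, 2, 3 or 4 or WT replicate 1, 2 or 4. Without WT replicate 3, 5 genes of the list were called lower. Of 12 regulators tied to aquaporin genes, 7 were called lower and 0 higher, with a median of -0.68. The insulin receptor Insr (-1.48) and the transcription factors Ppara (-1.35) and Foxa2 (-1.09) fell. Without KO replicate 1, 2 or 3 there were 4 lower calls, and 2 with library totals only.

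**Figure D4:**
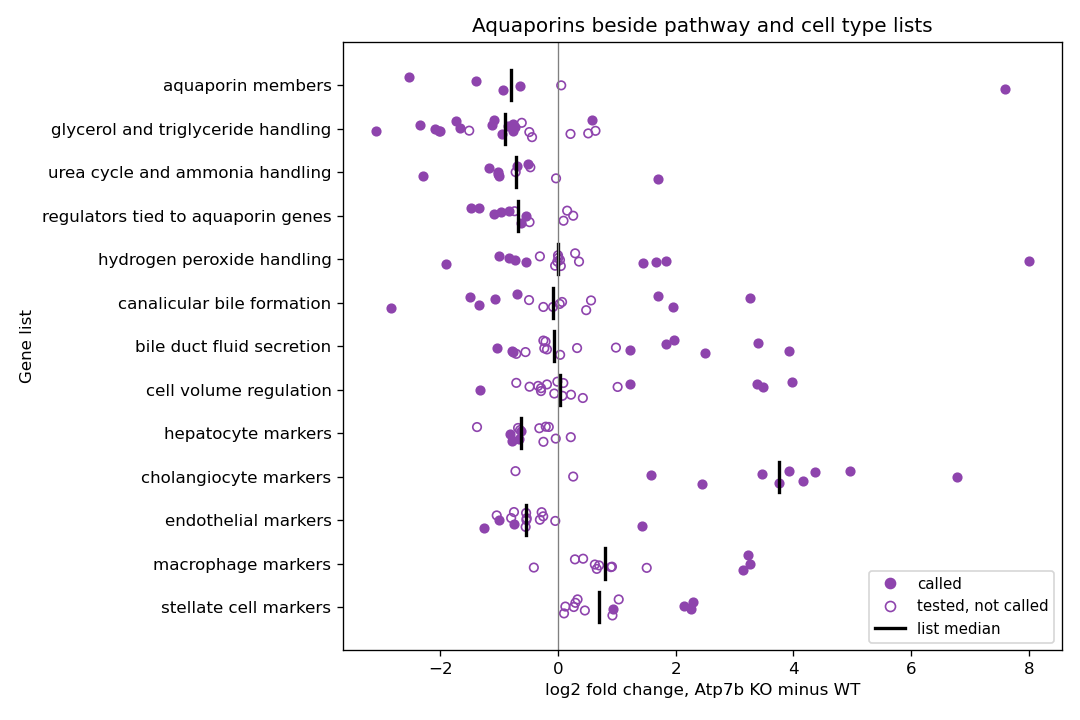
Log2 fold change, KO minus WT, of each tested gene in the aquaporin group, 7 pathway lists and 5 cell type lists, with filled points for called genes, open points for genes not called and a black bar at each list's median. The aquaporin median of -0.79 lies near those of glycerol and triglyceride handling (-0.90), urea and ammonia handling (-0.72) and hepatocyte markers (-0.63). Cholangiocyte markers lie apart at 3.76.

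Hepatocyte markers, which mark the cells that carry Aqp8, Aqp9 and Aqp11, were at a median log2 fold change of -0.63. Of 13 tested, 4 were called lower (Apoa1 at -0.66, Serpina1c at -0.79, Trf at -0.81 and Hnf4a at -0.63) and 0 higher, with 2 lower calls without KO replicate 1 or 2 or WT replicate 4. With library totals only 0 were lower and 1 higher. Their summed level was 59482 to 82346 CPM in KO livers and 82721 to 135235 CPM in WT livers. Macrophage markers had a median of 0.80 with 3 of 12 called higher (6 without WT replicate 3). Stellate cell markers had a median of 0.69 with 4 of 12 called higher. Higher calls made up 17.6% of all genes tested. Neutrophil, skeletal muscle, kidney and pancreas, and intestinal epithelium lists had 3, 2, 1 and 5 genes that passed the filter. Of these, 2, 1, 0 and 2 were called higher. The intestinal higher calls, Krt20 and Vil1, had 0 and 16 counts over the WT libraries. The intestinal list also had 1 lower call, Lgals4 (log2 fold change -1.21, edgeR adjusted p = 0.0158), which was lost without KO replicate 2 and with library totals only. The part of cell composition in the aquaporin decreases was not tested.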

How the data were processed

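Liver RNA of 4 Atp7b KO and 4 WT libraries was sequenced. Per the labels' protocols, the RNA was a Trizol extract, DNase-treated and column-purified, and the submitters' processing notes name FastQC, cutadapt, STAR and mm10, without versions. The authors deposited raw counts per gene, with no normalization. The sources used here do not name a counter, a strand setting or an annotation release.

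Columns were matched to samples by title. Gene positions and exon lengths came from GENCODE M21 of mm10, which holds 99.9% of the identifiers. Genes were filtered with filterByExpr, scaled with TMM factors and tested with edgeR 4.0.16 in R 4.3.3 (quasi-likelihood test, genotype only), with Benjamini-Hochberg adjustment over all genes tested. The SE is the log2 fold change divided by the square root of F. Log2 CPM used a prior count of 2. Ratios on 1 to 3 WT counts carry exact 95% counting intervals, which, like the floor of 3 counts, cover counting error only.

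The members and lists were chosen with earlier results of these data known. Exact permutation tests of the sums and shares over the members were planned, but no p is given for them for that reason. Named genes are all aquaporins, up to 4 genes with the lowest p in each list, and 3 nearest profiles per tested member; some genes that this rule names are not reported here. The fit was tested on simulated data. Alternatives were DESeq2 1.42.0, limma 3.58.1 (voom, with and without quality weights), other scaling and filters, an adjusted p under 0.01, the library-number runs as a covariate, and leaving out each library. Replicate numbers follow accession order. No library repeated another within counting noise.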

Additional observations from a re-analysis of the deposited data

Results flagged for a closer look

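In groups of 4 libraries, 5 of the 38 groups of aquaporin values examined held a library far from the other 3. Chance gives about 1 in 20 for continuous values, but a group with a single read in 1 library is always flagged. The number of flags therefore cannot be set against that rate. Aqp8 read 810 CPM in WT replicate 3, above the other WT libraries at 442 to 474 CPM. Aqp11 read 25.9 CPM in WT replicate 4, where the other WT libraries lay between 21.8 and 22.0 CPM. The remaining 3 rest on a single read each in WT replicate 1, at 0.0880 CPM for Aqp3, 0.0880 CPM for Aqp7 and 0.0880 CPM for Aqp5, with no read in the other WT libraries.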

How the results depend on the processing

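Aqp4, Aqp7 and Aqp8 kept their direction and their call under all 18 alternatives. Aqp9 was not called with upper-quartile factors (-0.53), library totals only (-0.24), no filter (-0.63), the library-number covariate (-0.55) or an adjusted p under 0.01 (-0.65), and Aqp11 was not with library totals only (-0.51). Library totals left 2 members called lower. Leaving out 1 library gave -0.78 to -0.54 for Aqp9 and -0.17 to 0.24 for Aqp1, whose sign also turned with quality weights (-0.062). The Aqp11 share of the summed level moved from 0.051 percentage points, KO minus WT, to -0.0068 without division by exon length. The causes were not tested, except that library totals shift the median of all genes from -0.05 to 0.37. Of 684 counts of called list genes under alternatives, 559 lay within 1.5 times the value given. Counts of all genes called were 8104 without WT replicate 3, 8226 with quality weights and 2872 at an adjusted p under 0.01, against 4746. No paired analysis was possible because the labels give no replicate numbers that pair KO and WT libraries.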

Other observations

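Genes next to the aquaporins on the chromosome were read after the members' values were known, 2 protein-coding genes on each side. Of the 20 neighbours with enough reads, 4 (Aqp7 itself, Pak1, Aldh1a2 and Lcmt1) were higher and 2 (Inmt and Lipc) were lower, against 30.0% called over all genes. Aqp7 and Aqp3 lie 44.6 kb apart on the same strand of chromosome 4, and Aqp7 was read in every KO library while Aqp3 had 7 KO counts in all. Nfx1, 7.08 kb from Aqp7 on its other side, was at -0.20 (edgeR adjusted p = 0.513).

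Beside Aqp11, the kinase gene Pak1 averaged 10.7 ± 1.77 CPM in KO livers and 1.17 ± 0.318 CPM in WT livers (SD, n = 4 each), and Clns1a, 3.21 kb away, was at 0.10 (edgeR adjusted p = 0.697). Beside Aqp9, the retinaldehyde dehydrogenase Aldh1a2 averaged 1.76 ± 0.367 CPM in KO livers and 0.198 ± 0.147 CPM in WT livers, and the hepatic lipase Lipc averaged 125 ± 17.6 CPM in KO livers and 220 ± 83.8 CPM in WT livers (SD, n = 4 each). Beside Aqp1, the methyltransferase Inmt averaged 56.3 ± 33.97 CPM in KO livers and 835 ± 821 CPM in WT livers (SD, n = 4 each).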
